A study of Mus musculus with 8 samples.

Results

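Kupffer cells are the resident macrophages of the liver, and 38 genes that mark them or macrophages in general were followed in liver RNA-seq of WT and HRD1Alb mice. The genes came from a list of 39 names, of which Adgre1 and Emr1 are the same gene, and were looked up by symbol among the 23337 symbols of the count files. All 38 were present, Adgre1 under its older symbol Emr1 and Spi1 under Sfpi1, and all 38 passed edgeR's filter on low counts, which kept 14328 genes for testing. They were sorted by role into 5 resident Kupffer genes, 4 scavenger and uptake receptors, 8 pan-macrophage lineage genes, 6 lipid-associated or recruited genes, 2 genes of monocyte recruitment and adhesion, 4 adaptors and Fc receptors, 3 receptors of microbial sensing and 6 genes of the lysosome and of antigen handling.

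All 8 samples were livers of C57BL/6 mice aged 12 weeks, 2 in each of the 4 groups. HRD1Alb mice, labelled Hrd1-/-, carry floxed alleles of HRD1, an endoplasmic reticulum E3 ubiquitin ligase encoded by Syvn1, and a Cre transgene under the albumin enhancer and promoter. That promoter is active in hepatocytes, so the deletion is not directed at macrophages. The WT mice are the floxed animals without Cre according to the study's description of its controls. Both genotypes were sampled fasted overnight or fasted overnight and refed for 4 h. The labels number 2 samples per group without saying that each was a separate mouse, so the p-values measure the spread between these samples only, which may be technical. Whole liver was sequenced, so more macrophages and more RNA per macrophage cannot be told apart.

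Kupffer cells line the sinusoids, take up debris, bacteria and aged red cells from portal blood, and need the growth factor receptor CSF1R to survive and the factor PU.1 to form. Monocytes that enter an injured liver can become macrophages in turn, and macrophages loaded with lipid or dead cells, whether resident or recruited, express Trem2, Gpnmb, Cd9 and lysosomal genes. PU.1, encoded by Spi1, binds purine-rich sites that hold the letters GAGGAA in the regulatory DNA of myeloid genes, and AP-1 factors bind the letters TGANTCA.

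As examples, the 250 bases before the RefSeq start of Cd5l, Marco, Trem2 and Mmp12 are given here. They run 5′ to 3′ on the strand of the gene, on build GRCm38.p6. All 4 hold the letters GAGGAA, whereas only 14 of the 28 genes with a window do. The 4 therefore do not stand for the other genes, nor for those with the largest differences. Capitals mark GAGGAA, or TTCCTC for the same letters on the other strand, and in Trem2 also TGANTCA. The window of Cd5l, a resident Kupffer gene, lies at chr3:87357631-87357880 on the plus strand, that of Marco at chr1:120505025-120505274 on the minus strand, that of Trem2 at chr17:48346151-48346400 on the plus strand and that of Mmp12 at chr9:7344147-7344396 on the plus strand.
Cd5l: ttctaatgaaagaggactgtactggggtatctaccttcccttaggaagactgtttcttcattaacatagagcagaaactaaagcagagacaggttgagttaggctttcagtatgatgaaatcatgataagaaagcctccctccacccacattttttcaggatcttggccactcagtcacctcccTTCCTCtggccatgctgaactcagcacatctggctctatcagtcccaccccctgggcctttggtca
Marco: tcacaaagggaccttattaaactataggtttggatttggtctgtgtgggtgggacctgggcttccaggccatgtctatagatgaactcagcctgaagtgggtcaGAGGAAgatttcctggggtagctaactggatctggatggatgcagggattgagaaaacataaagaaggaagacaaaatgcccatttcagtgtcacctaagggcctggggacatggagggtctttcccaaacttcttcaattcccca
Trem2: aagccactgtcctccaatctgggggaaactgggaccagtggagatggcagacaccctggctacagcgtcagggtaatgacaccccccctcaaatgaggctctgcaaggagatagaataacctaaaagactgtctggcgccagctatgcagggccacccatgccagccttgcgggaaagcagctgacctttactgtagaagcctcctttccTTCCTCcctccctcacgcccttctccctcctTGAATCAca
Mmp12: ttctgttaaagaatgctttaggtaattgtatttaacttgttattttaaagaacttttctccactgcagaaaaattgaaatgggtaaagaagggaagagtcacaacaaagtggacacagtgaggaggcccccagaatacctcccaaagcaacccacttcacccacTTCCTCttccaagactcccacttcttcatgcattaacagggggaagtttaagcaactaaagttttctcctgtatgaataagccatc
The GAGGAA letters begin at position -66 in Cd5l, -146 in Marco, -40 in Trem2 and -86 in Mmp12, counted back from the start, and the TGANTCA match of Trem2 begins at -9. Mmp12 has 2 RefSeq windows, and its TGANTCA match lies in the one not shown. RefSeq windows were found for 28 of the 38 genes. GAGGAA, searched on both strands, was present in a window of 14 of these 28 genes (50%), and in 25.9% of 27025 genes with a window. TGANTCA was present in 5 of the 28 (17.9%) against 7.82% of all, and the E-box CACGTG in 1 of the 28 (3.57%) against 6.86%. These are matches of letters only, and binding was not measured.

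Total counts ranged from 40210576 to 49117080 per library, so that 3 counts, taken as the smallest detectable value, equal 0.0611 to 0.0746 CPM (counts scaled to a common library size) before normalization. Values below are CPM normalized by the TMM method, in the order replicate 1, replicate 2. Syvn1, the deleted gene, was read at 111 and 99.8 CPM in fasted WT, 32.6 and 31.5 in fasted HRD1Alb, 637 and 305 in refed WT and 453 and 132 in refed HRD1Alb. The library labelled refed HRD1Alb replicate 1 thus did not lie below refed WT in this gene. Counts over the whole gene cannot show the loss of an exon. Refed HRD1Alb replicate 2 stood apart in another way, since its ratio to replicate 1 fell with transcript length, with a Spearman rho of -0.592 over 14177 genes and of -0.611 over the 38 macrophage genes, whereas rho over all genes lay between -0.116 and 0.0338 in the other 3 groups. Against replicate 1, short macrophage transcripts were high in replicate 2, as in Aif1 with a log2 ratio of 2.07 and Tyrobp with 1.42. Several long ones were low, as in Itgam with -1.45, each computed after a prior count of 1 was added. Between these 2 libraries 14 of the 38 genes differed by at least 2-fold, against 2 or 3 in each other group. Refed log2 fold changes are therefore also given without each of these 2 libraries where leaving 1 out changed the call or moved the fold by more than 1.5 times.

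**Figure D1:**
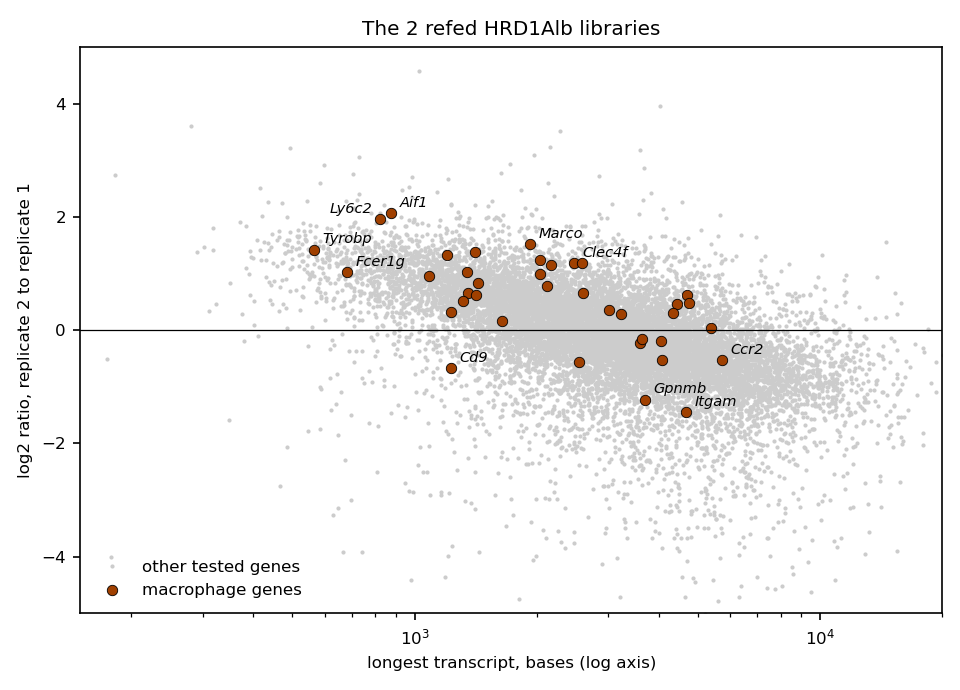
Log2 ratio of refed HRD1Alb replicate 2 to replicate 1 (vertical axis) against the length of the longest transcript in bases (horizontal log axis), with tested genes in grey and the macrophage genes in brown. The macrophage genes follow the grey cloud downwards, with Aif1 and Tyrobp above 0 at the short end and Itgam below 0 at the long end.

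HRD1Alb liver held more RNA of most macrophage genes than WT liver in both feeding states, as shown in the plot of fold changes. In the fasted state 36 of the 38 genes had a positive log2 fold change, with a median of 1.32 against -0.02 over all tested genes, and both HRD1Alb libraries lay above both WT libraries in 35 genes and below them in 1, Cd9. Among all tested genes 30.6% were higher and 34.2% lower without overlap. In the refed state all 38 were positive, with a median of 1.79 against 0.04, and 32 lay above WT without overlap and none below, against 30.7% and 30.1% of all genes. At an adjusted p under 0.05, 7 of the 38 genes (18.4%) rose in the fasted state, against 0.921% of all tested genes, and 27 (71.1%) rose in the refed state, against 7.09%. No macrophage gene fell in either state, against 0.433% and 4.84% of all genes. With the 2 feeding states averaged, 33 of the 38 (86.8%) rose, against 11.3% of all genes, and none fell, against 7.78%. The 5 that did not pass were Cd9, Ly6c2, Itgam, Ctsb and Ctsd.

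The number that passed depended on which libraries entered the shared estimate of the spread. In the fasted state it was 31 when both refed HRD1Alb libraries were left out, where 10.3% of all genes rose, and these 31 held all 7. It was also 31 without replicate 1 or 2 of these alone, where 9.84% and 9.66% of all genes rose. It was 1 without either fasted HRD1Alb library and 0 without any single WT library, fits in which at most 0.136% of all genes rose. At an unadjusted p under 0.05 with at least a 2-fold change, 28 of the 38 differed in the fasted state, all upwards, against 8.35% of all genes in either direction. In the refed state 33 passed without the library labelled refed HRD1Alb replicate 1, where 25% of all genes rose and 27.8% fell, and 30 without replicate 2, where 11.9% rose and 11.7% fell. Each held all 27. The refed number fell to 17 without WT fasted replicate 2, where 3.22% of all genes rose, and to 11 and 12 without HRD1Alb fasted replicates 1 and 2, where 1.65% and 1.71% rose. It was 0 without either refed WT library, where 0.0068% and 0.0136% of all genes rose, and 0 when the 4 refed libraries were fitted alone, where 0% did, so these fits called almost no gene of any kind. With the feeding states averaged it was 18 without HRD1Alb fasted replicate 1, where 2.49% of all genes rose, and 20 and 19 without refed WT replicates 1 and 2, where 2.88% and 2.72% rose. A group left with 1 library was assumed to vary like the others.

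**Figure D2:**
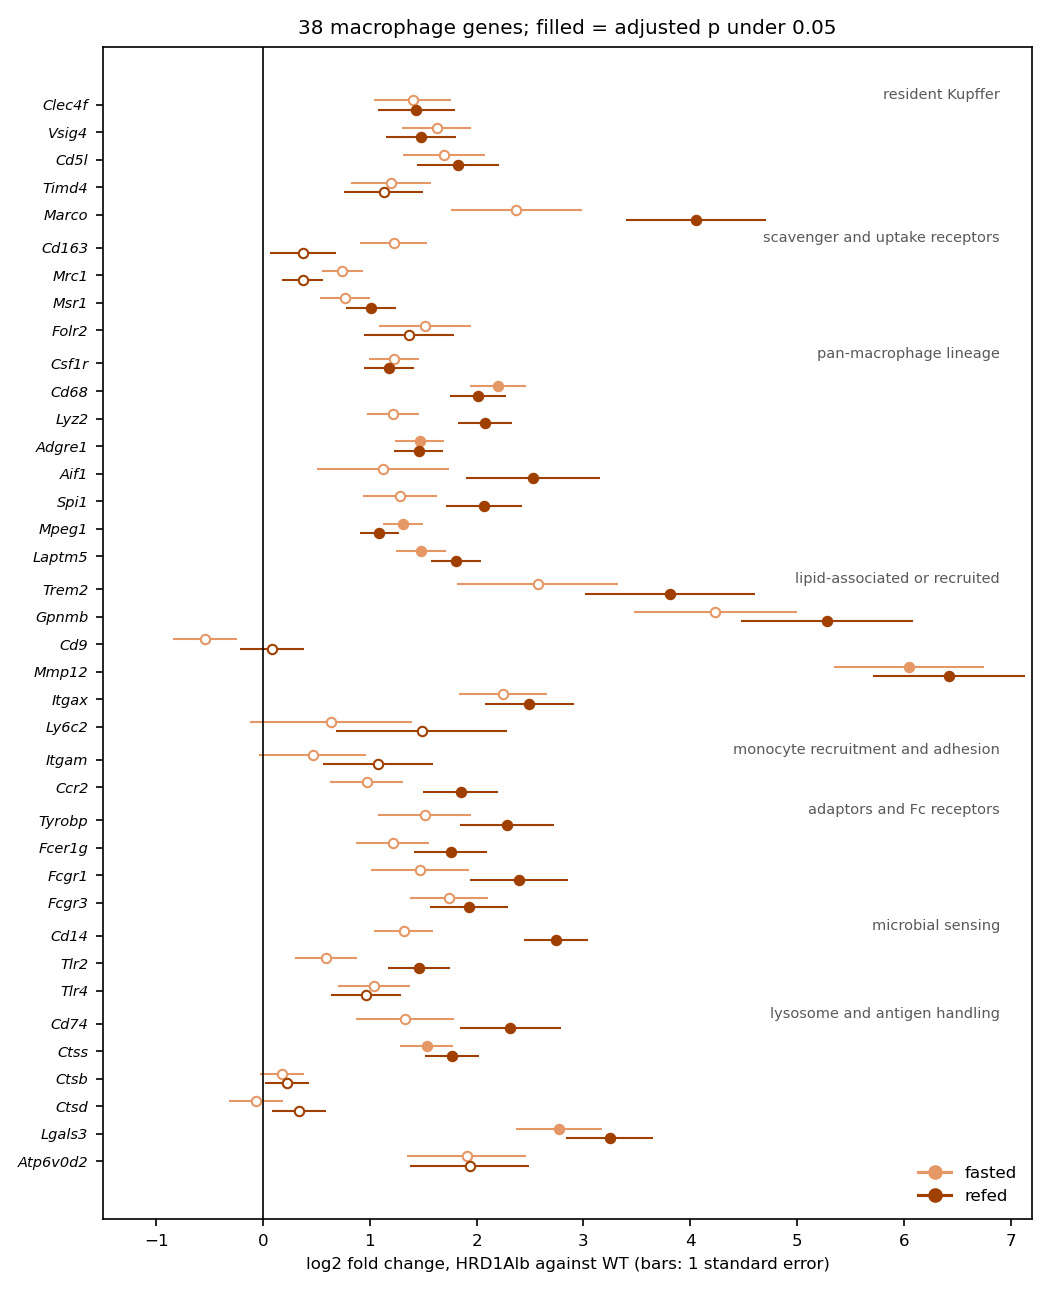
Log2 fold change of HRD1Alb against WT for the 38 macrophage genes, grouped by role, in the fasted (light) and refed (dark) state, with bars of 1 standard error and filled points for an adjusted p under 0.05. All refed values are above 0, from 0.08 for Cd9 to 6.42 for Mmp12, and the 7 filled fasted points are Cd68, Adgre1, Mpeg1, Laptm5, Mmp12, Ctss and Lgals3.

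The 5 resident Kupffer genes were higher in every HRD1Alb library than in any WT library of the same feeding state. Their median log2 fold change was 1.63 in the fasted and 1.48 in the refed state, and 4 of the 5 passed the test in the refed state, all but Timd4, and none in the fasted state. Clec4f, a C-type lectin that in the mouse is found almost only on Kupffer cells, was read at 38.9 and 30.4 CPM in fasted WT, 101 and 82.0 in fasted HRD1Alb, 35.7 and 38.4 in refed WT and 61.2 and 139 in refed HRD1Alb. Its log2 fold change was 1.40 (SE 0.363, adjusted p = 0.109) in the fasted and 1.44 (SE 0.364, adjusted p = 0.0463) in the refed state, or 2.71-fold. The refed value was 0.72 without replicate 2 of refed HRD1Alb and 1.91 without replicate 1, and it passed in both fits. Vsig4, a complement receptor of tissue macrophages, was at 9.58 and 8.13 CPM in fasted WT, 33.2 and 21.4 in fasted HRD1Alb, 9.21 and 9.90 in refed WT and 19.1 and 34.2 in refed HRD1Alb. It rose in the refed state by a log2 of 1.48 (SE 0.325, adjusted p = 0.0332), and its fasted log2 fold change was 1.63 (SE 0.326, adjusted p = 0.0617).

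Cd5l, which encodes a protein secreted by macrophages that binds lipids and IgM, was at 27.4 and 26.7 CPM in fasted WT, 104 and 71.0 in fasted HRD1Alb, 32.5 and 30.7 in refed WT and 67.0 and 157 in refed HRD1Alb. It rose in the refed state by a log2 of 1.83 (SE 0.385, adjusted p = 0.0303), and the fasted value was 1.69 (SE 0.384, adjusted p = 0.0827). The refed value was 2.31 without refed HRD1Alb replicate 1 and 1.08 without replicate 2. Timd4, a phosphatidylserine receptor for dying cells, was at 2.27 and 1.87 CPM in fasted WT, 5.08 and 4.43 in fasted HRD1Alb, 2.89 and 2.94 in refed WT and 3.98 and 8.81 in refed HRD1Alb. The 4 HRD1Alb values lay above all 4 WT values, although the refed test was not passed (log2 fold change 1.13, SE 0.371, adjusted p = 0.0856), and it gave 1.59 and passed without refed HRD1Alb replicate 1 and gave 0.44 without replicate 2. With both refed HRD1Alb libraries left out, all 5 resident genes passed the fasted test, with Timd4 at an adjusted p of 0.00949.

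Marco, a scavenger receptor for bacteria and particles, had the largest difference of the resident genes. It was read at 3.57 and 3.31 CPM in fasted WT, 22.4 and 13.2 in fasted HRD1Alb, 3.51 and 1.26 in refed WT and 20.6 and 59.0 in refed HRD1Alb. Every HRD1Alb library exceeded every WT library by more than 3 times. The log2 fold change was 2.37 (SE 0.614, adjusted p = 0.109) in the fasted and 4.05 (SE 0.659, adjusted p = 0.0159) in the refed state, and the refed value was 4.61 without refed HRD1Alb replicate 1 and 3.10 without replicate 2.

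**Figure D3:**
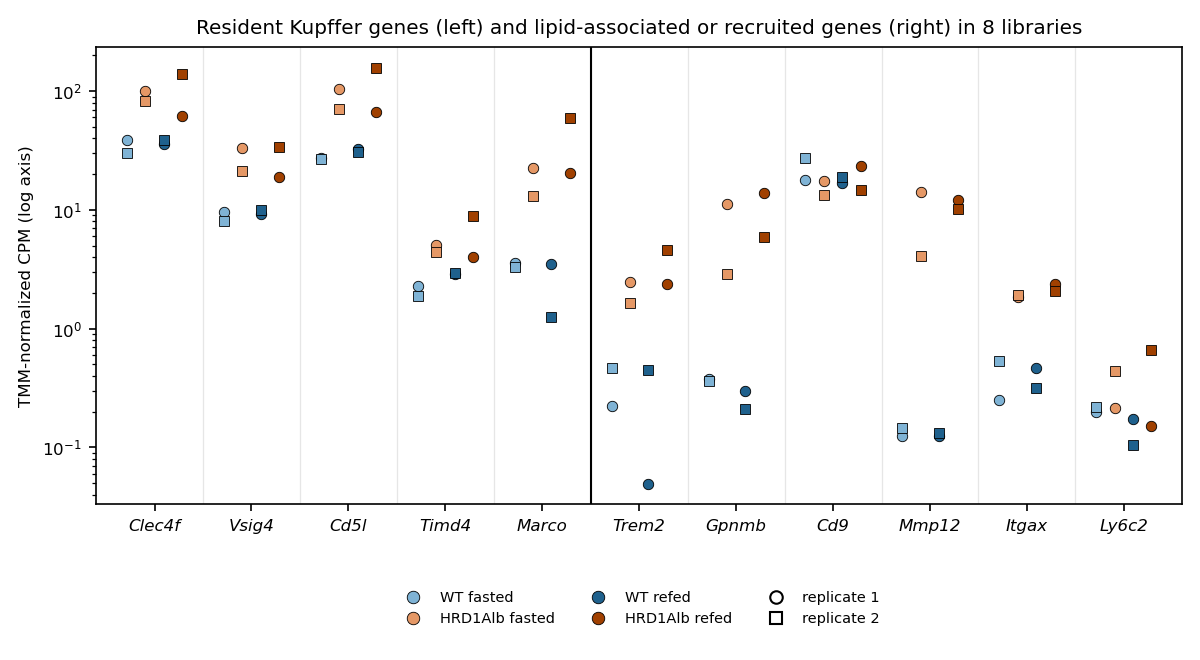
TMM-normalized CPM (log axis) of the 5 resident Kupffer genes on the left and the 6 lipid-associated or recruited genes on the right, 1 point for each of the 8 libraries, with WT in blue, HRD1Alb in brown, refed darker, and replicates 1 and 2 as circles and squares. The HRD1Alb points lie above the WT points of the same feeding state in each of these genes except Cd9 and Ly6c2, and the widest gap is that of Mmp12, with WT at 0.123 to 0.146 CPM.

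The 6 lipid-associated or recruited genes split into 4 that rose strongly and 2 that did not pass the test. Their median log2 fold change was 2.41 in the fasted and 3.15 in the refed state, 1 of the 6 passed in the fasted state, Mmp12, and 4 in the refed state. With at least 10 counts required in every sample, which drops genes at a few counts in WT, the medians were 0.88 and 1.33. Mmp12, the macrophage metalloelastase, was at 0.125 and 0.146 CPM in fasted WT, 14.2 and 4.07 in fasted HRD1Alb, 0.123 and 0.131 in refed WT and 12.0 and 10.2 in refed HRD1Alb. Each WT library held 5 or 6 counts of it and each HRD1Alb library between 224 and 726. It rose by a log2 of 6.05 (SE 0.700, adjusted p = 0.0189) in the fasted and 6.42 (SE 0.712, adjusted p = 0.0082) in the refed state. At 5 or 6 counts in WT it passed the filter on low counts only through the HRD1Alb libraries, where it is high, so a difference was built into its selection and the size of the fold depends on those few WT counts. Gpnmb, a transmembrane glycoprotein of lipid-laden macrophages, was at 0.374 and 0.365 CPM in fasted WT, 11.1 and 2.89 in fasted HRD1Alb, 0.296 and 0.210 in refed WT and 14.0 and 5.96 in refed HRD1Alb. Its replicates differed widely in HRD1Alb liver, and the lowest HRD1Alb value was still 7 times or more above every WT value. It rose in the refed state by a log2 of 5.28 (SE 0.808, adjusted p = 0.0142), and the fasted log2 fold change was 4.24 (SE 0.762, adjusted p = 0.0508). The refed value was 4.53 without refed HRD1Alb replicate 1 and 5.76 without replicate 2.

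Trem2, a lipid-sensing receptor of macrophages that signals through TYROBP, was at 0.224 and 0.462 CPM in fasted WT, 2.46 and 1.65 in fasted HRD1Alb, 0.0494 and 0.446 in refed WT and 2.35 and 4.6 in refed HRD1Alb. Refed WT replicate 1 held 2 counts, below the floor of 3. The log2 fold change was 2.57 (SE 0.754, adjusted p = 0.137) in the fasted and 3.81 (SE 0.795, adjusted p = 0.0297) in the refed state, and the refed value was 4.22 without refed HRD1Alb replicate 1 and 3.25 without replicate 2. Itgax, the integrin CD11c of dendritic cells and activated macrophages, was at 0.249 and 0.535 CPM in fasted WT, 1.84 and 1.91 in fasted HRD1Alb, 0.469 and 0.315 in refed WT and 2.37 and 2.08 in refed HRD1Alb. It rose in the refed state by a log2 of 2.49 (SE 0.413, adjusted p = 0.0169), and the fasted value was 2.24 (SE 0.411, adjusted p = 0.0516). With both refed HRD1Alb libraries left out, Gpnmb, Trem2 and Itgax passed the fasted test too.

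Cd9 and Ly6c2 did not pass in either feeding state. Cd9, a tetraspanin that many liver cells carry, was at 17.8 and 27.1 CPM in fasted WT, 17.4 and 13.3 in fasted HRD1Alb, 16.9 and 18.9 in refed WT and 23.3 and 14.6 in refed HRD1Alb. Both fasted HRD1Alb libraries lay below WT and the refed groups overlapped (log2 fold change -0.55, SE 0.298, adjusted p = 0.389 fasted and 0.08, SE 0.297, adjusted p = 0.856 refed). Its refed sign turned to -0.30 without the library labelled refed HRD1Alb replicate 1. Ly6c2, a surface marker of inflammatory monocytes whose reads may be shared with its close copy Ly6c1, stayed under 1 CPM in all libraries, from 0.105 to 0.658. At 4 to 9 counts in the WT libraries, Ly6c2 passed the filter on low counts only through the HRD1Alb libraries. Its groups overlapped in both feeding states, and its log2 fold changes were 0.64 (SE 0.762, adjusted p = 0.727) and 1.49 (SE 0.802, adjusted p = 0.228). The refed value was 2.21 (adjusted p = 0.0204) without refed HRD1Alb replicate 1 and 0.12 without replicate 2.

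The 8 pan-macrophage lineage genes rose in the refed state without exception, with a median log2 fold change of 1.91, and 4 of them passed in the fasted state, where the median was 1.30. Csf1r, the receptor of the macrophage growth factors CSF1 and IL-34, was at 18.8 and 18.3 CPM in fasted WT, 48.2 and 38.7 in fasted HRD1Alb, 18.4 and 19.8 in refed WT and 34.1 and 52.6 in refed HRD1Alb, with a log2 fold change of 1.23 (SE 0.233, adjusted p = 0.0556) fasted and 1.18 (SE 0.233, adjusted p = 0.0267) refed. Spi1, the gene of PU.1, was at 1.72 and 1.78 CPM in fasted WT, 4.65 and 3.85 in fasted HRD1Alb, 1.65 and 1.89 in refed WT and 4.99 and 9.91 in refed HRD1Alb, and rose in the refed state by a log2 of 2.07 (SE 0.352, adjusted p = 0.0184). Cd68, a lysosomal glycoprotein of macrophages, was at 1.92 and 2.41 CPM in fasted WT, 11.7 and 8.21 in fasted HRD1Alb, 2.59 and 2.73 in refed WT and 9.51 and 11.9 in refed HRD1Alb. It rose 4.6-fold in the fasted (adjusted p = 0.0213) and 4.03-fold in the refed state (adjusted p = 0.011). Adgre1, which encodes F4/80, was at 3.34 and 3.26 CPM in fasted WT, 10.3 and 7.92 in fasted HRD1Alb, 4.15 and 3.54 in refed WT and 9.53 and 11.6 in refed HRD1Alb.

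Adgre1 rose by nearly the same log2 in both states, 1.47 (adjusted p = 0.0385) and 1.46 (adjusted p = 0.0146). Mpeg1, a pore-forming protein of phagocytes, was at 21.0 and 18.8 CPM in fasted WT, 54.1 and 44.5 in fasted HRD1Alb, 25.9 and 28.4 in refed WT and 51.8 and 63.8 in refed HRD1Alb, and rose by 1.31 (adjusted p = 0.0321) and 1.09 (adjusted p = 0.0178). Laptm5, a lysosomal membrane protein of blood cells, was at 7.81 and 8.10 CPM in fasted WT, 22.6 and 21.7 in fasted HRD1Alb, 7.53 and 7.33 in refed WT and 20.2 and 31.8 in refed HRD1Alb, and rose by 1.48 (adjusted p = 0.0395) and 1.81 (adjusted p = 0.0109). In these 3 genes the gap between genotypes was wider than that between replicates in each feeding state. Lyz2, lysozyme, was at 14.0 and 15.3 CPM in fasted WT, 40.1 and 27.9 in fasted HRD1Alb, 13.9 and 15.6 in refed WT and 51.2 and 73.4 in refed HRD1Alb, with log2 fold changes of 1.22 (adjusted p = 0.0638) and 2.08 (adjusted p = 0.00956). Aif1, the actin-binding protein IBA1, was at 1.47 and 1.31 CPM in fasted WT, 2.66 and 3.41 in fasted HRD1Alb, 1.26 and 1.84 in refed WT and 3.42 and 14.4 in refed HRD1Alb. Its refed log2 fold change of 2.52 (SE 0.628, adjusted p = 0.0444) was 3.22 without refed HRD1Alb replicate 1 and 1.14 without replicate 2, with an adjusted p of 0.0371.

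Since most of these genes rose together, each was also set against the summed CPM of the 8 lineage genes in the same library. That sum was 70.1 and 69.2 CPM in fasted WT, 194 and 156 in fasted HRD1Alb, 75.4 and 81.1 in refed WT and 185 and 270 in refed HRD1Alb. Of the other 30 genes, 8 were higher relative to it in both HRD1Alb libraries of both feeding states, namely Marco, Trem2, Gpnmb, Mmp12, Itgax, Tyrobp, Ctss and Lgals3, against 1.03% of all tested genes. Another 5 were lower in the same way, namely Mrc1, Msr1, Cd9, Ctsb and Ctsd, against 80.2% of all genes. The sum itself was higher in HRD1Alb, so a gene that does not change is lower relative to it by construction. Both shares over all genes therefore depend on this divisor. The remaining 17 overlapped between genotypes in at least 1 feeding state. Relative to the sum, Clec4f came to 1.05 times its WT share in the fasted and 0.896 times in the refed state, Vsig4 to 1.21 and 0.942, Cd5l to 1.27 and 1.17 and Timd4 to 0.917 and 0.727 times. Of these 4, Vsig4 and Cd5l were higher in the fasted state and Timd4 lower in the refed state without overlap of the groups, and Clec4f overlapped in both. Marco came to 2.02 and 5.32 times, Trem2 to 2.35 and 4.84, Gpnmb to 7.14 and 15 and Mmp12 to 25.5 and 31.6 times. Of the 6 lipid-associated or recruited genes, 4 were higher relative to the lineage sum in every HRD1Alb library than in the WT libraries of the same feeding state. Mmp12, counted among these 4 and among the 8, passed the filter on low counts only through the HRD1Alb libraries. A difference was thus built into its selection. These shares are given as a description, with no test. In refed HRD1Alb they differed between replicates 1 and 2, upwards in Tyrobp (5.31% and 9.75% of the sum) and Marco (11.2% and 21.9%) and downwards in Gpnmb (7.56% and 2.21%).

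**Figure D4:**
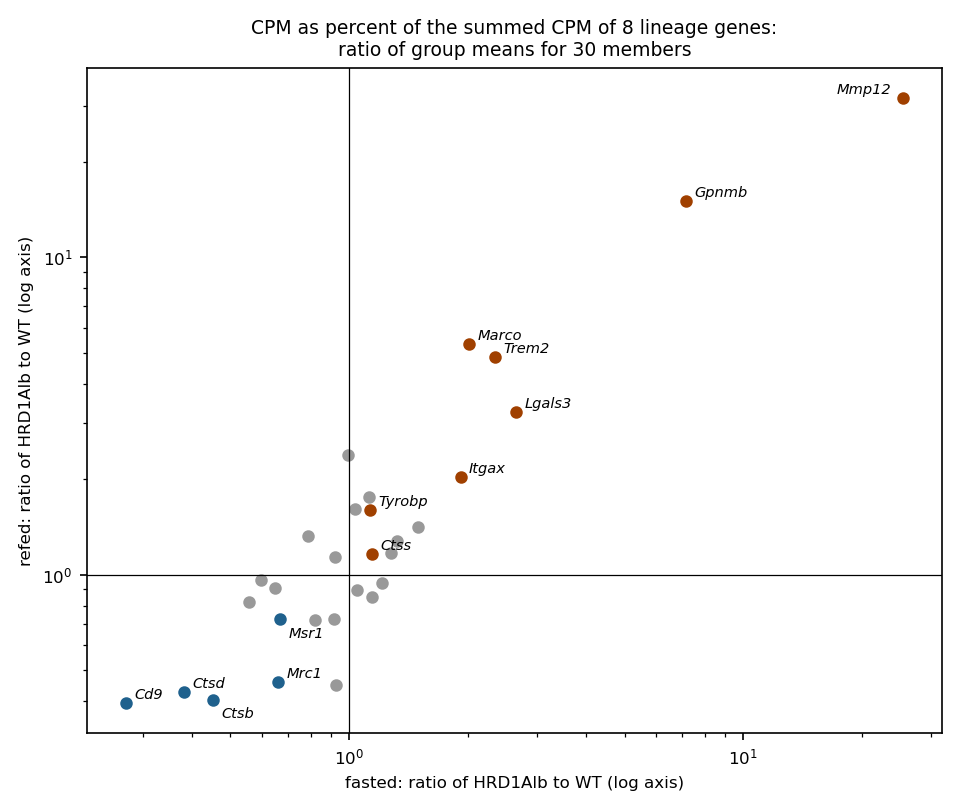
Ratio of HRD1Alb to WT, fasted on the horizontal and refed on the vertical axis (both log), of each gene's CPM as a percentage of the summed CPM of the 8 lineage genes, for the 30 other macrophage genes. The 8 genes higher in every HRD1Alb library of both feeding states are brown, the 5 lower ones blue and the other 17 grey, with Mmp12 at 25.5 and 31.6 in the upper corner. Mmp12 passed the filter on low counts only through the HRD1Alb libraries.

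The scavenger and uptake receptors differed less, with median log2 fold changes of 0.99 fasted and 0.69 refed, and 1 of the 4 passed in the refed state. This was Msr1, the class A scavenger receptor, at 5.76 and 6.28 CPM in fasted WT, 12.4 and 8.14 in fasted HRD1Alb, 8.12 and 7.85 in refed WT and 17 and 15.2 in refed HRD1Alb (refed log2 fold change 1.01, SE 0.232, adjusted p = 0.0372). Cd163, the haemoglobin and haptoglobin receptor, was at 11.3 and 7.03 CPM in fasted WT, 24.4 and 18.5 in fasted HRD1Alb, 6.59 and 9.06 in refed WT and 8.51 and 11.8 in refed HRD1Alb. The fasted groups were apart and the refed groups overlapped, with log2 fold changes of 1.22 (adjusted p = 0.105) and 0.37 (adjusted p = 0.405). Mrc1, the mannose receptor, which sinusoidal endothelium also carries, was at 24.0 and 20.5 CPM in fasted WT, 42.7 and 31.7 in fasted HRD1Alb, 26.2 and 23.0 in refed WT and 31.5 and 32.2 in refed HRD1Alb. Folr2, a folate receptor of resident macrophages, was at 2.27 and 1.70 CPM in fasted WT, 6.20 and 5.19 in fasted HRD1Alb, 2.64 and 3.02 in refed WT and 4.16 and 10.5 in refed HRD1Alb. All 4 rose when the feeding states were averaged, Mrc1 by a log2 of 0.56 (SE 0.136, adjusted p = 0.0311), Cd163 by 0.80 (adjusted p = 0.0431), Msr1 by 0.89 (adjusted p = 0.0133) and Folr2 by 1.44 (adjusted p = 0.0194). The refed value of Folr2, 1.37 (adjusted p = 0.0759), was 1.88 and passed without refed HRD1Alb replicate 1 and was 0.55 without replicate 2.

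All 4 adaptors and Fc receptors rose in the refed state, with a median log2 fold change of 2.11, and none passed in the fasted state, where the median was 1.49. Tyrobp, the adaptor DAP12 through which TREM2 signals, was at 3.42 and 3.48 CPM in fasted WT, 11.4 and 8.30 in fasted HRD1Alb, 3.65 and 3.73 in refed WT and 9.80 and 26.3 in refed HRD1Alb. Its refed log2 fold change was 2.29 (SE 0.442, adjusted p = 0.025), 2.82 without refed HRD1Alb replicate 1, and 1.40 both without replicate 2 and with a correction for transcript length. Fcer1g, the common gamma chain of the Fc receptors, was at 3.64 and 3.82 CPM in fasted WT, 9.64 and 7.66 in fasted HRD1Alb, 3.83 and 4.33 in refed WT and 9.12 and 18.5 in refed HRD1Alb, with a refed log2 fold change of 1.76 (SE 0.341, adjusted p = 0.0254). The IgG receptors rose as well: Fcgr1 was at 0.524 and 0.876 CPM in fasted WT, 1.88 and 2.02 in fasted HRD1Alb, 0.765 and 0.867 in refed WT and 2.62 and 6.01 in refed HRD1Alb, a refed log2 fold change of 2.40 (adjusted p = 0.0244). Fcgr3 was at 3.12 and 2.68 CPM in fasted WT, 11.3 and 8.12 in fasted HRD1Alb, 2.84 and 2.70 in refed WT and 6.96 and 14.2 in refed HRD1Alb, a refed log2 fold change of 1.93 (adjusted p = 0.0236). Without refed HRD1Alb replicate 1 the refed values were 2.18 for Fcer1g, 2.87 for Fcgr1 and 2.35 for Fcgr3, and without replicate 2 they were 1.16, 1.68 and 1.32.

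Of the receptors that sense microbes, Cd14 and Tlr2 rose in the refed state and Tlr4 did not pass there. Cd14, the co-receptor for lipopolysaccharide, was at 2.62 and 2.90 CPM in fasted WT, 7.16 and 6.57 in fasted HRD1Alb, 0.840 and 1.47 in refed WT and 7.30 and 8.20 in refed HRD1Alb. The level in HRD1Alb liver was about the same in both feeding states and that in WT liver was lower in both refed libraries than in both fasted ones. The genotypes differed by a log2 of 1.32 (SE 0.278, adjusted p = 0.0699) fasted and of 2.75 (SE 0.298, adjusted p = 0.0082) refed. Tlr2, a receptor for bacterial lipoproteins, was at 1.15 and 1.36 CPM in fasted WT, 2.07 and 1.71 in fasted HRD1Alb, 1.04 and 1.31 in refed WT and 2.83 and 3.64 in refed HRD1Alb (refed log2 fold change 1.46, SE 0.291, adjusted p = 0.0274). Tlr4, the receptor for lipopolysaccharide, was at 0.748 and 0.730 CPM in fasted WT, 1.62 and 1.42 in fasted HRD1Alb, 0.765 and 1.08 in refed WT and 2.12 and 1.47 in refed HRD1Alb, and rose with the feeding states averaged (log2 fold change 1.0, SE 0.235, adjusted p = 0.027). Its refed value of 0.96 (adjusted p = 0.0926) was 0.67 without refed HRD1Alb replicate 1 and 1.2, with a pass, without replicate 2.

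Ccr2, the chemokine receptor by which monocytes leave the blood for tissues, was at 1.10 and 1.63 CPM in fasted WT, 2.66 and 2.69 in fasted HRD1Alb, 1.21 and 0.788 in refed WT and 4.27 and 2.96 in refed HRD1Alb. It rose in the refed state by a log2 of 1.85 (SE 0.351, adjusted p = 0.0239), and its fasted log2 fold change was 0.97 (SE 0.342, adjusted p = 0.193). Itgam, the integrin CD11b of monocytes, neutrophils and some macrophages, was at 0.898 and 0.90 CPM in fasted WT, 1.15 and 1.33 in fasted HRD1Alb, 0.444 and 0.709 in refed WT and 1.78 and 0.636 in refed HRD1Alb. Its refed groups overlapped (log2 fold change 1.08, SE 0.518, adjusted p = 0.186), and the value was 0.14 (adjusted p = 0.803) without refed HRD1Alb replicate 1 and 1.62 (adjusted p = 0.0216) without replicate 2.

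The 6 genes of the lysosome and of antigen handling did not move alike. With the feeding states averaged 4 of them rose, and Ctsb and Ctsd did not pass. Lgals3, the lectin galectin-3, was at 1.62 and 1.46 CPM in fasted WT, 14.3 and 6.81 in fasted HRD1Alb, 2.0 and 2.36 in refed WT and 16.4 and 25.1 in refed HRD1Alb, and rose 6.84-fold in the fasted (log2 2.77, SE 0.403, adjusted p = 0.0343) and 9.48-fold in the refed state (log2 3.24, SE 0.404, adjusted p = 0.00991). Ctss, the protease cathepsin S of antigen-presenting cells, was at 12.4 and 11.9 CPM in fasted WT, 39.6 and 30.6 in fasted HRD1Alb, 13.4 and 13.0 in refed WT and 34.8 and 55.2 in refed HRD1Alb, and rose in both states, by a log2 of 1.53 (adjusted p = 0.0428) and 1.77 (adjusted p = 0.0121). Cd74, the invariant chain of MHC class II, was at 21.4 and 21.7 CPM in fasted WT, 41.3 and 67.0 in fasted HRD1Alb, 30.1 and 19.1 in refed WT and 68.2 and 177 in refed HRD1Alb (refed log2 fold change 2.31, SE 0.474, adjusted p = 0.0288). Its refed value was 2.84 without refed HRD1Alb replicate 1 and 1.46 without replicate 2. Atp6v0d2, a subunit of the proton pump of macrophages and osteoclasts, was at 0.773 and 3.16 CPM in fasted WT, 8.10 and 6.72 in fasted HRD1Alb, 2.32 and 2.34 in refed WT and 10.6 and 7.19 in refed HRD1Alb, and rose with the feeding states averaged (log2 fold change 1.92, SE 0.393, adjusted p = 0.0182). Its refed value of 1.93 (adjusted p = 0.0629) was 1.62 without refed HRD1Alb replicate 1 and 2.18 without replicate 2, and passed in both fits.

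The cathepsins Ctsb and Ctsd, proteases of lysosomes in many cells, had the highest levels of the 38 genes per length, at 91.9 and 191 RPKM on the mean of fasted WT, where Clec4f stood at 14.0 and Cd68 at 1.76. Ctsb was at 402 and 469 CPM in fasted WT, 515 and 470 in fasted HRD1Alb, 487 and 533 in refed WT and 496 and 696 in refed HRD1Alb. Ctsd was at 402 and 411 CPM in fasted WT, 417 and 358 in fasted HRD1Alb, 358 and 348 in refed WT and 328 and 564 in refed HRD1Alb. The refed groups of both genes overlapped, and neither gene passed in either feeding state (Ctsb log2 fold change 0.18 fasted and 0.23 refed, Ctsd -0.07 and 0.34, smallest adjusted p = 0.364). Without refed HRD1Alb replicate 1 both passed in the refed state, Ctsb at 0.44 (adjusted p = 0.0344) and Ctsd at 0.67 (adjusted p = 0.00401), and without replicate 2 they were at -0.043 and -0.11.

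Refeeding gave no call among these genes. In WT liver none of the 38 passed the test by edgeR, against 1.2% of all genes that rose and 1.41% that fell, and 2 had an unadjusted p under 0.05, Mpeg1 and Cd14. The change of Cd14, a log2 of -1.26 (SE 0.294, adjusted p = 0.0809), was the only one past 2-fold at that p, against 6.85% of all genes, and DESeq2 called 1 of the 38, against 3.46% higher and 4.12% lower of all genes. In HRD1Alb liver none passed either, against 5.43% and 5.05% of all genes, 9 had an unadjusted p under 0.05, 4 of them past 2-fold, against 13.5% of all genes, and DESeq2 called 3, against 10.7% of all genes higher and 9.68% lower. Of these 9, Cd163 had a log2 fold change of -1.08 (SE 0.309, adjusted p = 0.0668) and the other 8 were positive, with Lyz2 at 0.87 (SE 0.243, adjusted p = 0.0613). The response to refeeding was also compared between genotypes: no gene of all tested passed this interaction (0% in either direction), and no macrophage gene passed it by DESeq2, which called 0.398% of all genes higher and 0.335% lower, while 2 of the 38 had an unadjusted p under 0.05 and 1 of them was past 2-fold, against 4.48% of all genes. These were Cd14, with an interaction of 1.43 on the log2 scale (SE 0.398, adjusted p = 0.561), and Lyz2, with 0.87 (SE 0.344, adjusted p = 0.584). No share of all genes was taken at an unadjusted p alone, so the counts of 2, 9 and 2 at that p are not weighed. Without the library labelled refed HRD1Alb replicate 1, 11 of the 38 passed the interaction, where 15.4% of all genes were higher and 18% lower, and 18 passed refeeding in HRD1Alb liver, where 24.8% and 26.6% did. These numbers count both directions. As shares of the 38 genes they do not exceed the higher and lower shares of all genes combined. Neither number thus sets the macrophage genes apart. The remaining refed HRD1Alb library was then replicate 2, whose ratio to replicate 1 fell with transcript length.

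Other genes known from these cells, some of them also expressed by other liver cells, were read with the feeding states averaged. There 11.3% of all tested genes rose and 7.78% fell. Of 14 more Kupffer identity genes 9 rose and 1 fell, and their median log2 fold change was 1.10. The 3 chains of complement C1q rose by 1.80 for C1qa, 1.91 for C1qb and 1.83 for C1qc (adjusted p = 0.00873, 0.00752 and 0.00582). C1qa was at 14.5 and 12.7 CPM in fasted WT, 37.5 and 34.6 in fasted HRD1Alb, 13.7 and 12.8 in refed WT and 33.1 and 88.6 in refed HRD1Alb. Spic, a factor of macrophages that recycle iron, rose by 1.43 (adjusted p = 0.0248), Slc11a1 by 1.33, Id3 by 0.88, Clec4n by 2.30, Clec1b by 1.17 and Cd38 by 0.51. C6, a complement protein that hepatocytes also make, fell by 1.87 on the log2 scale (adjusted p = 0.0061). Slc40a1, Nr1h3, Cdh5 and Fcna did not pass, and Slc40a1 had a log2 fold change of -0.22 and Nr1h3 of 0.02.

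Of 12 more lipid-associated genes 8 rose and 1 fell, with a median log2 fold change of 1.53. Lpl, lipoprotein lipase, was at 21.8 and 33.5 CPM in fasted WT, 107 and 111 in fasted HRD1Alb, 18.0 and 25.1 in refed WT and 143 and 129 in refed HRD1Alb, and rose by a log2 of 2.32 (SE 0.183, adjusted p = 0.00156). The paper also reports raised Lpl in cultured hepatocytes lacking HRD1, so it is not a marker of macrophages alone here. Cd36, a fatty acid transporter that hepatocytes also carry, rose by 1.78 (adjusted p = 0.00168) and Cd63, a tetraspanin of lysosomes, by 2.42 (adjusted p = 0.00751). Lgals1 rose by 1.79, Ctsl by 1.09, Ctsk by 1.29, Ccl3 by 1.93 and Ccl4 by 1.95. Ctsl stood at 846 and 1054 CPM in fasted WT, where Clec4f stood at 38.9 and 30.4. Which cells its reads came from was not tested. Ccl3 and Ccl4 had 2 to 10 counts in each WT library. They passed the filter on low counts only with the HRD1Alb libraries, where they are high, so a difference was built into their selection. Lipa, lysosomal acid lipase, fell by 0.69 on the log2 scale (adjusted p = 0.00979), and Spp1, Fabp5 and Plin2 did not pass, at -0.34, 0.49 and 0.12.

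Among 8 growth factors and chemoattractants 6 could be tested and 4 rose. Il34, a ligand of CSF1R, rose by a log2 of 1.12 (SE 0.213, adjusted p = 0.0142), whereas Csf1, its other ligand, had a log2 fold change of -0.14 (SE 0.216, adjusted p = 0.652). Ccl2, the ligand of CCR2, was at 0.125 and 0.195 CPM in fasted WT, 0.724 and 0.781 in fasted HRD1Alb, 0.272 and 0.158 in refed WT and 1.49 and 2.32 in refed HRD1Alb. It rose by a log2 of 2.67 (SE 0.324, adjusted p = 0.00404), Ccl7 by 2.94 (SE 0.634, adjusted p = 0.0214) and Mif by 0.99 (SE 0.237, adjusted p = 0.0291). Ccl7 had 1 or 2 counts in each WT library, under the floor of 3, and passed the filter through the HRD1Alb libraries, so its fold is not well determined. Ccl2 had 5 to 11 counts in the WT libraries and also passed the filter only with the HRD1Alb libraries, where it is high. A difference was thus built into the selection of both genes. Cx3cl1 did not pass (log2 fold change 0.68, adjusted p = 0.173), and Csf2 and Ccl12 were too low to be tested.

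Marker lists of other liver and blood cells were read beside these results, and their part in them was not tested. Markers said to rise or fall passed with the feeding states averaged, where 11.3% of all tested genes rose and 7.78% fell. In the fasted state alone 1 of the 9 Kupffer cell markers passed, Adgre1, and no marker of the other lists. Of all genes 0.921% rose there and 0.433% fell, so the absence of calls in the other lists has no weight. The summed level of 9 Kupffer cell markers was 112 to 129 CPM over the 4 WT libraries and 286 to 675 over the 4 HRD1Alb libraries. These markers include the 5 resident genes and Adgre1, so the sum is not separate evidence. That of 7 markers of sinusoidal endothelium, the lining next to Kupffer cells, was 105 to 128 CPM in WT and 115 to 139 in HRD1Alb, and none of the 7 passed, also with the feeding states averaged. The summed level of 5 hepatocyte markers in HRD1Alb liver was 0.605 times that of WT in the fasted and 0.759 times in the refed state, and 1 of the 5, Fgb, fell. Stellate cell markers summed to 176 to 363 CPM in WT and 352 to 450 in HRD1Alb, and 5 of the 7 rose, with 2 passing in the refed state alone. Lists of blood cells moved too, at low levels: 5 monocyte markers summed to 4.41 to 6.30 CPM in WT and 8.37 to 17.8 in HRD1Alb, and 1 of the 5, Ccr2, rose. Natural killer cell markers summed to 0.867 to 1.34 CPM in WT and 2.33 to 6.88 in HRD1Alb, and 2 of the 5 rose, Klrb1c and Gzma. Gzma, at 5 to 18 counts in WT, passed the filter on low counts only with the HRD1Alb libraries. Of 7 T cell markers 3 rose, with sums of 2.46 to 3.19 CPM in WT and 3.36 to 10.2 in HRD1Alb, and of 4 tested neutrophil markers 1, S100a9, rose, with sums of 2.20 to 4.18 and 4.20 to 11.5 CPM.

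The dendritic cell lists were mixed, again with the feeding states averaged. Of 6 markers of conventional dendritic cells 3 rose, Flt3, Ccr7 and Clec9a, with sums of 5.01 to 10 CPM in WT and 6.73 to 12.0 in HRD1Alb. Flt3 and Ccr7, at 4 to 10 counts in WT, passed the filter on low counts only with the HRD1Alb libraries, where they are high. Of 3 markers of plasmacytoid dendritic cells only Ly6d rose, from 2.78 to 5.29 CPM in WT to 21.0 to 112 in HRD1Alb, whereas Siglech, the defining member, stayed between 0.158 and 0.90 CPM in all libraries. None of 4 tested B cell markers and none of 5 cholangiocyte markers passed, and of 2 tested erythroid markers 1 fell, Alas2.

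**Figure D5:**
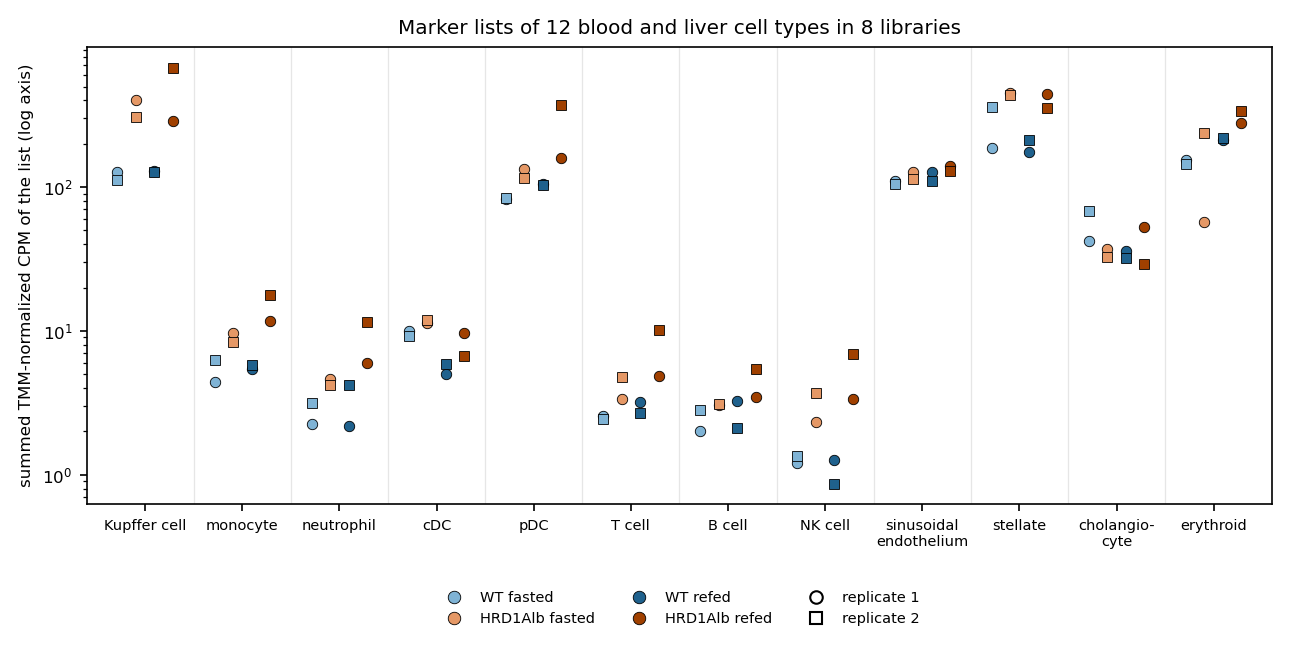
Summed TMM-normalized CPM (log axis) of 12 marker lists in each of the 8 libraries, with WT in blue, HRD1Alb in brown, refed darker, and replicates 1 and 2 as circles and squares; cDC and pDC are conventional and plasmacytoid dendritic cells. The Kupffer cell list separates the genotypes, at 112 to 129 CPM in WT and 286 to 675 in HRD1Alb. The monocyte, neutrophil, NK cell, T cell and pDC lists separate them as well. The endothelial list lies at 105 to 139 CPM in all libraries.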

How the data were processed

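Liver RNA from 8 samples was sequenced on an Illumina NextSeq instrument after extraction with TRIzol. The authors deposited whole-number read counts per gene symbol, 1 file per sample, without normalization. The paper's methods name ERANGE for counting, whereas the submitters' processing notes name cutadapt, STAR, HTSeq, DESeq2 and mm10, with no versions, so which tool made the deposited counts is not settled here. Strand was not stated.

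For the values given here, edgeR 4.0.16 (R 4.3.3) was run on the deposited counts. The filter filterByExpr was applied (minimum count 10, minimum total 15), libraries were normalized by TMM (factors 0.837 to 1.22), and all 8 samples entered 1 quasi-likelihood fit with a mean for each of the 4 groups (common dispersion 0.0573, median prior degrees of freedom 3.38). Each contrast had its p-values corrected by Benjamini-Hochberg across 14328 genes, and genes passed at an adjusted p under 0.05. Dividing the size of a log2 fold change by the square root of its F statistic gave the SE. RPKM values divide CPM by the longest transcript of GENCODE M21 on GRCm38, found for 22873 symbols. The study itself used limma on its own values. Promoter windows are those of RefSeq.

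Values per sample are given for the resident and the lipid-associated or recruited genes, for every other member that passed a genotype contrast, and, chosen after their values were seen, for Itgam, Ctsb and Ctsd; other genes are given by count with values for those that passed, and Csf1, Slc40a1, Nr1h3, Cx3cl1, Spp1, Fabp5, Plin2 and Siglech were named after their values were seen. The members and lists were chosen with earlier results of these data known. Alternatives used DESeq2 1.42.0 and limma 3.58.1, RLE normalization, other filters, a replicate block, an offset for transcript length and each of the 8 samples left out in turn; leaving out both refed HRD1Alb samples was added after the data were seen. Plots were made in matplotlib 3.10.9. Simulated data with known changes were used to test the fit. The floor of 3 counts covers counting error only, whereas SEs include the spread between samples.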

Additional observations from a re-analysis of the deposited data

How the results depend on the processing

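Of 1811 alternative values for the 38 genes in the fasted, refed and averaged comparisons, 1402 kept direction and side of the threshold, 153 passed only in the alternative, 250 passed only in the reported fit and 6 changed sign. The sign changes were small and never passed: Cd9 refed was -0.22 with the length offset and -0.30 to 0.38 over left-out samples, Ctsb refed -0.043 to 0.44, Ctsd refed -0.11 to 0.67, Ctsd fasted -0.18 to 0.036 and Ctsd averaged -0.091 to 0.30. The fasted count of 7 was 25 by DESeq2 (4.41% of all genes higher), 14 without the filter (1.19%), 18 with the length offset (3.4%), 28 with the fasted samples alone (8.26%), 28 by unadjusted p with a 2-fold change, 31 without both refed HRD1Alb samples, and 0 to 31 over left-out samples. The refed count of 27 was 0 with the refed samples alone and 0 to 33 over left-out samples, and the averaged count of 33 was 18 to 36. The interaction count of 0 was 1 by unadjusted p with a 2-fold change and 0 to 11 over left-out samples. The count of 0 for refeeding in WT was 1 by DESeq2, with the length offset, with the WT samples alone and by unadjusted p with a 2-fold change, and 2 without both refed HRD1Alb samples, with 0 to 2 over left-out samples. The count of 0 for refeeding in HRD1Alb was 3 by DESeq2 and 4 by unadjusted p with a 2-fold change, with 0 to 18 over left-out samples. The median of the lipid-associated or recruited genes, 2.41 fasted and 3.15 refed, was 0.88 and 1.33 with at least 10 counts in every sample, a filter that removes genes at a few counts in WT; refed it was also 3.32 by limma-trend, 2.95 with the length offset and 3.81 with the refed samples alone, and over left-out samples 1.97 to 3.07 fasted and 2.88 to 3.64 refed. That of the resident genes was 1.27 to 1.91 fasted and 0.99 to 1.91 refed over left-out samples. Apart from these constructions the cause was not tested.

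With the replicate number as a block in the fit, 4 macrophage genes passed fasted in place of 7. In the refed state 26 passed in place of 27, and with the feeding states averaged 32 in place of 33. Of all genes, 0.572% rose fasted in place of 0.921%, 5.54% refed in place of 7.09% and 10.5% averaged in place of 11.3%. No macrophage gene passed the other comparisons. Samples with the same number did not deviate together in every pair of groups (r from 0.0161 to 0.179), so the numbers were not taken to pair the samples. Genes at a few counts in WT, such as Mmp12 and Trem2, have fold changes limited by depth.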
